A study of Bos taurus with 15 samples.

Results

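A group of 81 genes, of the 21665 measured in bovine fetal fibroblasts (BFFs), fell to 50% or less of their control level after transfection with each of 3 constructs: wild-type (WT) ARGFX, mutant ARGFX and LEUTX. The members were chosen on their measured level. The expected count of each gene was divided by the sample total and scaled to CPM (counts for every 1000000 of the total), the CPM was averaged per condition, and a member had a control mean of at least 5 CPM and a mean of at most 0.5 times control with every construct. The interferon-stimulated genes MX1, MX2, ISG15, RSAD2, IFI6 and IFIT1, 6 in all, also passed these thresholds and were left out by the rule, so that 87 genes passed in all. The drop below control is therefore what defined the group and is described here without a test. The results that the rule did not use are the differences among the 3 constructs and the variation among samples of one condition.

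ARGFX and LEUTX belong to the ETCHbox genes, PRD-class homeobox genes that are active in the early mammalian embryo and not in fibroblasts, and their homeodomain proteins bind DNA and change transcription of target genes. Interferons are signals that cells release on sensing foreign nucleic acid. They bind receptors on the cell surface, which activate JAK kinases such as TYK2, and these phosphorylate STAT proteins that turn on the interferon-stimulated genes. Among the 6 genes left out, MX1 and MX2 encode antiviral GTPases, ISG15 a ubiquitin-like protein that is attached to other proteins, RSAD2 the antiviral enzyme viperin, and IFIT1 a protein that binds viral RNA. None of the 81 members was paired with a gene symbol in the sources used here, so they are given by Ensembl identifier and nothing is said of what each encodes.

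The cells were primary dermal fibroblasts from the torso skin of 1 fetus aged 6 months, used at passage 4. The 4 control samples received an empty vector with a CMV promoter and a puromycin resistance gene, and the other samples received the same vector carrying WT ARGFX (4 samples), mutant ARGFX (3 samples) or LEUTX (4 samples), so that all groups share electroporation, plasmid DNA and selection in puromycin at 4 µg/ml, with RNA taken at 72 h. The mutant allele is a frameshift whose predicted protein ends before the homeodomain. Each encoded protein was driven by the CMV promoter and carried a FLAG tag at its C-terminal end, which in the mutant construct takes the place of the early stop codon. A further mutant ARGFX sample was left out by the study as an outlier that grouped with WT ARGFX, and it is not analysed here. The cells were a transfected population rather than clones, and in such bulk RNA fewer expressing cells and less RNA per cell cannot be told apart.

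The expected counts of a sample summed to between 25947911 and 41554242. ARGFX reached 2866 to 4477 CPM in the WT ARGFX samples and 3631 to 6514 CPM in the mutant ARGFX samples, against at most 0.0385 CPM in a control sample, and LEUTX reached 1294 to 1729 CPM in the LEUTX samples. CPM takes no account of transcript length and the mutant insert is shorter than the WT one, so these ranges do not compare transcript numbers between constructs. The labels call the cells dermal fibroblasts, and of the 12 fibroblast markers listed, the 4 with a known identifier, COL1A1, COL1A2, COL3A1 and FN1, were at 1410 CPM or more in every sample. Their identifiers came from the study's list of genes raised by WT ARGFX, and their levels differed between conditions. From control to LEUTX, FN1 went from 2556.5 to 6991.0 CPM and COL3A1 from 2859.0 to 1750.2 CPM. A pair of WT ARGFX columns carry one header and are called unnumbered A and unnumbered B.

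Members spanned a wide range of expression in control cells, from 5.02 to 2448.9 CPM with a median of 45.3 CPM. A control mean of 100 CPM or more was found for 21 members, 48 lay between 10 and 100 CPM, and 12 lay under 10 CPM. Of the 10258 genes with a control mean of at least 5 CPM, 2.76% were at or under 0.5 of control with WT ARGFX, 0.965% with mutant ARGFX and 6.88% with LEUTX, and 0.848% were so with all 3 constructs, the 6 left-out genes included. The mutant construct, which halved the fewest genes, was thus the condition that limited membership. All 81 members passed edgeR's filter on low counts, which their control level was enough to meet.

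The members did not fall equally far. With mutant ARGFX they kept a median of 36.8% of the control level (lowest 5.87%, quartiles 29.2% and 43.2%, highest 49.9%). With WT ARGFX the median was 12.6% (lowest 0.0689%, quartiles 2.32% and 24.7%, highest 45.8%). With LEUTX it was 4.54% (lowest 0, quartiles 1.15% and 12.0%, highest 49.2%). Under 1% of control remained for 20 members with LEUTX and for 8 with WT ARGFX, whereas with mutant ARGFX no member was under 5% and 70 kept 20% or more. The 4 members with no count in any LEUTX sample all had control means between 15.3 and 95.9 CPM.

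**Figure D1:**
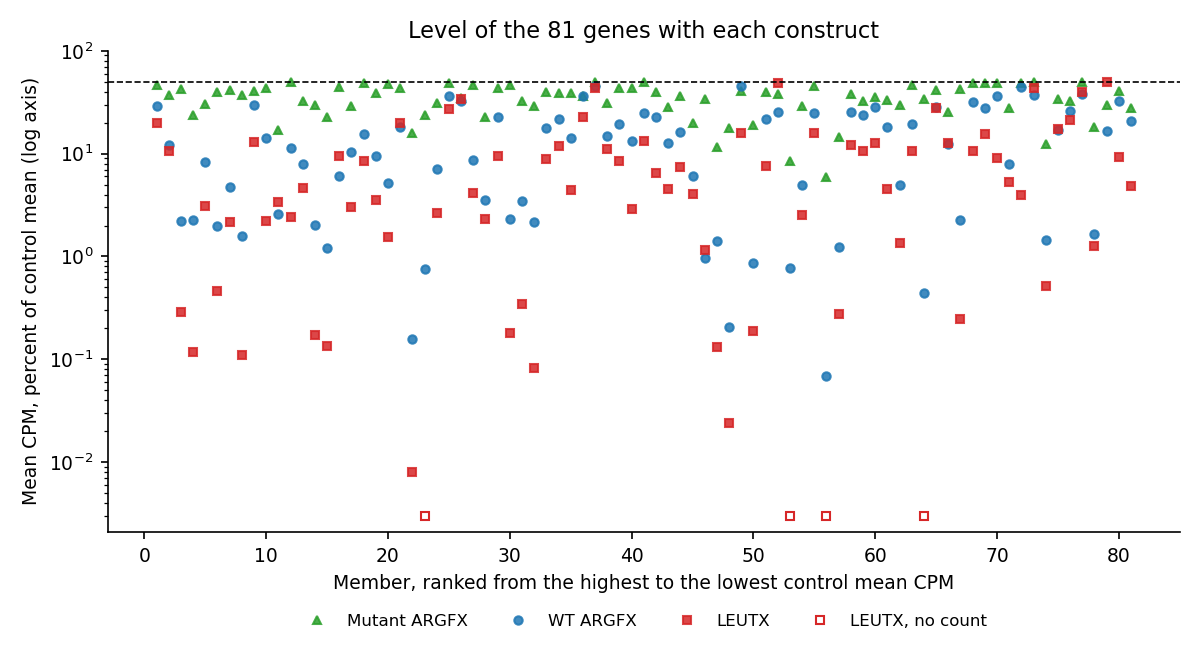
Mean CPM of each of the 81 genes with mutant ARGFX (triangles), WT ARGFX (circles) and LEUTX (squares) as a percent of its control mean on a log axis, with genes ranked by control mean and the dashed line at the limit of 50%. Open squares at the foot are the 4 genes with no count in any LEUTX sample, drawn at 0.003%. The triangles stay between 5.87% and 49.9%, while 43 of the squares and 27 of the circles lie under 5%.

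The member nearest the ratio limit was ENSBTAG00000055311.1, at 49.9% of control with mutant ARGFX, and the gene just outside it was ENSBTAG00000009842.3, at 50.3% with mutant ARGFX. The member with the lowest control mean was ENSBTAG00000046324.2, at 5.02 CPM, and ENSBTAG00000048782.1 stood just under the minimum at 5.00 CPM. Both genes just outside were also far below control with LEUTX, at 16.0% and 16.9%. The edge of the group is thus a cut through a continuous range of values.

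The most abundant member in control cells was ENSBTAG00000012330.6. Its control samples held 2209.6, 2686.0, 2260.0 and 2640.1 CPM. The mutant ARGFX samples held 1159.4, 1166.3 and 1094.0 CPM, the WT ARGFX samples 743.4, 647.2, 614.2 and 854.5 CPM, and the LEUTX samples 457.4, 435.8, 506.6 and 545.7 CPM. The conditions formed 4 separate bands with no overlap between any of them. Relative to control the means were 46.5% with mutant ARGFX, 29.2% with WT ARGFX and 19.9% with LEUTX. WT ARGFX was lower than mutant ARGFX by a log2 difference of -0.63 (SE 0.15, edgeR adjusted p = 0.0326), a call that was lost in each of the 6 fits leaving out a mutant ARGFX sample or WT ARGFX 1, 2 or unnumbered A and in the fit to the compared groups alone (adjusted p = 0.0604 to 0.141). The log2 difference between LEUTX and WT ARGFX was -0.53 (SE 0.14, edgeR adjusted p = 0.00561), under the fold change threshold of 1.5, which it passed without WT ARGFX 2 or unnumbered A.

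ENSBTAG00000009522.6, the next most abundant member, showed a different spacing. Its control samples held 746.1, 981.6, 877.9 and 906.0 CPM and its mutant ARGFX samples 394.1, 250.5 and 325.8 CPM. The WT ARGFX samples held 107.4, 102.8, 104.3 and 111.1 CPM, and the LEUTX samples 85.1, 87.0, 97.6 and 103.0 CPM. Every mutant sample was well above every WT ARGFX sample, while the highest LEUTX sample was just above the lowest WT ARGFX sample. WT ARGFX was 2.95-fold lower than mutant ARGFX (log2 difference -1.56, SE 0.14, edgeR adjusted p = 1.49e-06). The difference of LEUTX from WT ARGFX was -0.16 on the log2 scale (approximate 95% interval -0.41 to 0.10) and was not called.

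The members that kept the lowest percent of control with mutant ARGFX were ENSBTAG00000014529.5 and ENSBTAG00000019017.4. ENSBTAG00000014529.5 held 16.8, 19.3, 31.7 and 23.1 CPM in the control samples. It retained 1.89, 0.629 and 1.48 CPM in the mutant ARGFX samples, a total of 2 counts over the 4 WT ARGFX samples and no count in any LEUTX sample. A count of 0 allows up to 3 counts over the group, which puts this gene at least 936-fold lower with LEUTX than in control cells, and such limits cover counting error only. ENSBTAG00000019017.4 held 15, 26.4, 28.4 and 29.5 CPM in the control samples, 3.20, 2.09 and 1.07 CPM in the mutant ARGFX samples and no count with LEUTX, at least 1022-fold lower than control. With mutant ARGFX these members kept 5.87% and 8.54% of the control level. With WT ARGFX they kept 0.0689% and 0.781%, and the latter was above the 0.159% and 0.205% of ENSBTAG00000012406.6 and ENSBTAG00000037527.3.

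The order of the condition means was control, mutant ARGFX, WT ARGFX, LEUTX from high to low in 69 of the 81 members, and the rule fixed only the place of control in it. Mutant ARGFX was the highest construct in 78 members and the lowest in none. LEUTX was the lowest construct in 70 members and WT ARGFX in the other 11. Sample by sample, every mutant ARGFX sample was above every WT ARGFX sample, and every WT ARGFX sample above every LEUTX sample, in 44 members, while 2.32% of the 14264 genes tested showed that order. Of the 143 genes halved by WT ARGFX and LEUTX but not by mutant ARGFX, 70 also showed it, though their choice put the mutant mean above the WT ARGFX mean.

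WT and mutant ARGFX were compared first, since these constructs carry alleles of one gene. At an adjusted p-value under 0.05 in edgeR's quasi-likelihood test and a fold change over 1.5, 56 of 81 members were lower with WT than with mutant ARGFX and 0 were higher, whereas over all genes tested 1.12% were called lower and 0.386% higher. The other 25 members were not called, and 79 of the 81 estimates were below 0. At an unadjusted p under 0.05, 0 members were higher with WT ARGFX, and DESeq2 called 0 higher. The median log2 difference over the members was -1.56, against 0.01 over all genes tested. Every mutant ARGFX sample was above every WT ARGFX sample in 68 members, compared with 9.48% of all genes tested and with 123 of those 143 genes, whose mutant level the choice of genes held above 0.5 of control. The selection of members on a mutant mean at or under 0.5 of control limits how high the mutant level can be. It does not set which construct was lower. The study left out a mutant ARGFX sample that grouped with WT ARGFX, which favors separation of these constructs. How much this changed the counts given here was not tested.

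The largest of these differences were in ENSBTAG00000012406.6 and ENSBTAG00000037527.3. ENSBTAG00000012406.6 held 66.2, 86.0, 131.6 and 104.3 CPM in the control samples, 19.1, 7.22 and 20.2 CPM in the mutant ARGFX samples, and 0.223, 0.0569, 0.123 and 0.212 CPM in the WT ARGFX samples. The WT ARGFX values rest on 20 counts in all, and even the lowest mutant sample was far above the highest WT sample. WT ARGFX was 96.5-fold lower than mutant ARGFX (log2 difference -6.59, SE 0.42, edgeR adjusted p = 2.12e-08). In the LEUTX samples 1 count was seen, a ratio of 19.0 to WT ARGFX with a 95% counting interval from 3.41 to 751.0, and this difference was not called (edgeR adjusted p = 0.0553). ENSBTAG00000037527.3 held 23.0 to 37.0 CPM in the control samples, 4.31 to 6.18 CPM in the mutant ARGFX samples and 0 to 0.123 CPM in the WT ARGFX samples (log2 difference -6.31, SE 0.34, edgeR adjusted p = 3.24e-09).

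LEUTX and WT ARGFX were compared next. LEUTX was lower in 51 members and higher in 3, and 27 members were not called, against 11.8% lower and 9.82% higher over all genes tested. The median log2 difference was -1.24, a median 2.36-fold lower level with LEUTX, and it was -1.16 with the 4 members that had no LEUTX count set at their bound. All genes tested had a median of -0.03. Every WT ARGFX sample was above every LEUTX sample in 51 members, where 20.2% of all genes tested had that pattern. Those 3 were also the only members in which every LEUTX sample was above every WT ARGFX sample, a pattern seen in 16.2% of all genes tested.

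The member with the largest decrease from WT ARGFX to LEUTX was ENSBTAG00000034349.4. Its control samples held 76.0, 105.3, 92.3 and 110.1 CPM, its mutant ARGFX samples 30.8, 15.5 and 22.2 CPM and its WT ARGFX samples 0.861, 0.398, 0.584 and 1.06 CPM. No count was seen in any LEUTX sample, so that the gene was at least 29-fold lower with LEUTX than with WT ARGFX (edgeR adjusted p = 9.88e-05) and at least 940-fold lower than with mutant ARGFX (edgeR adjusted p = 2.1e-09). Against control it was at least 3951-fold lower. ENSBTAG00000019017.4 had the next fitted estimate, but it was near the counting limit in both groups, with 0.301, 0.380, 0.0944 and 0 CPM in the WT ARGFX samples (25.9 counts in all) and no LEUTX count. Only a 7-fold lower level can be given as its bound, so its place in the order is not resolved. Its call (edgeR adjusted p = 0.0328) was lost in the 6 fits that left out a LEUTX sample or WT ARGFX 1 or 2 (adjusted p = 0.0547 to 0.0892), and nothing is read from it.

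The 3 members called higher with LEUTX varied in abundance. ENSBTAG00000054069.1 was low in control cells, with 4.91, 3.55, 8.61 and 6.47 CPM, and held 1.31, 0.938, 0.676 and 0.971 CPM with WT ARGFX but 3.75, 2.43, 2.48 and 2.92 CPM with LEUTX. It was 3.03-fold higher with LEUTX (log2 difference 1.60, SE 0.26, edgeR adjusted p = 0.000128). ENSBTAG00000039657.3 held 5.42, 5.69, 7.19 and 7.16 CPM with WT ARGFX and 12.7, 11.8, 11.2 and 13.4 CPM with LEUTX, a 1.97-fold higher level (log2 difference 0.98, SE 0.16, edgeR adjusted p = 9.59e-05). ENSBTAG00000009677.5, named after its values were seen because it completed the 3, held 6.77 to 8.04 CPM with WT ARGFX and 10.4 to 12.9 CPM with LEUTX (log2 difference 0.68, SE 0.14, edgeR adjusted p = 0.00124), and it was the most abundant of them in control cells at 124.0 ± 13.7 CPM (SD, n = 4).

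**Figure D2:**
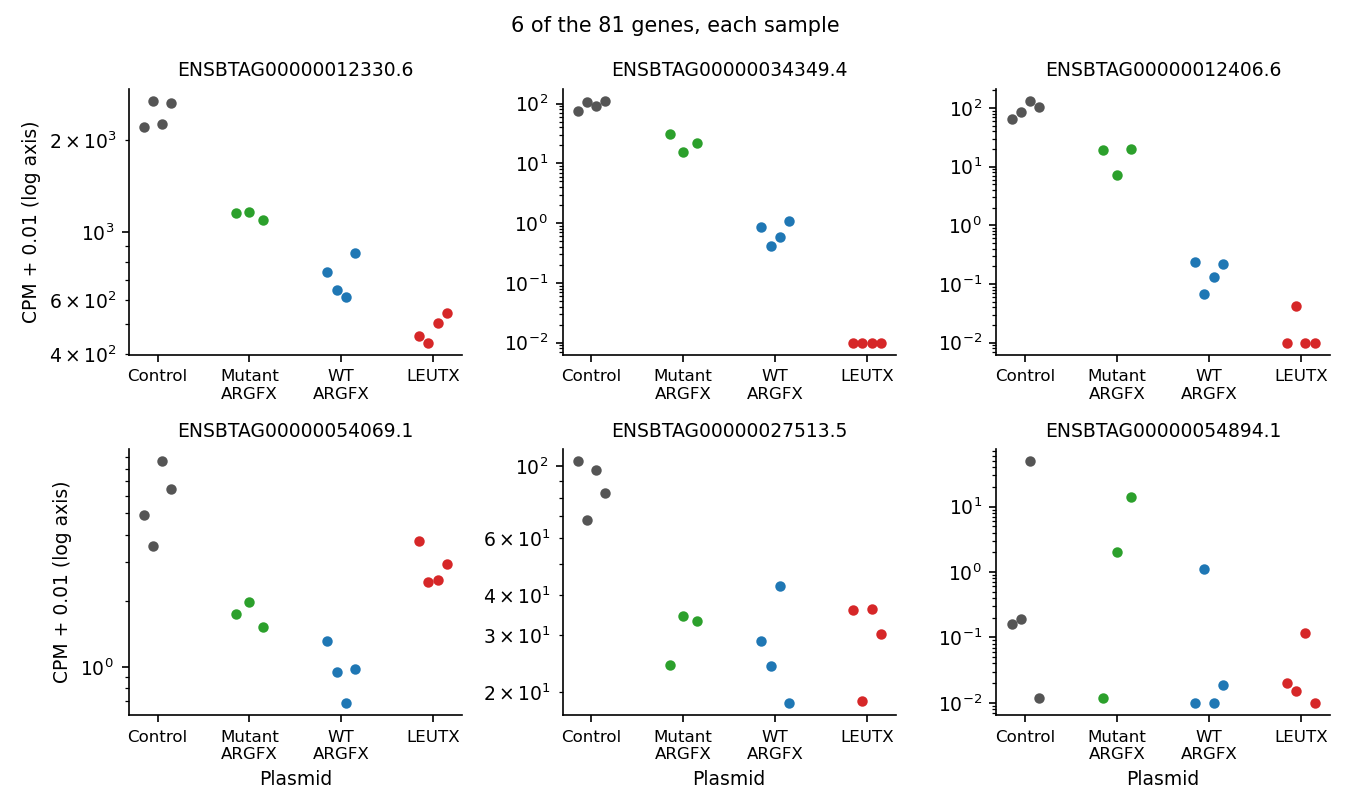
CPM of 6 members in every sample, each value raised by 0.01 so that zeros can be drawn on the log axis, with one point a sample and the 4 plasmids on the horizontal axis. ENSBTAG00000012330.6, ENSBTAG00000034349.4 and ENSBTAG00000012406.6 step down from control through mutant and WT ARGFX to LEUTX, ENSBTAG00000054069.1 is higher with LEUTX than with WT ARGFX, ENSBTAG00000027513.5 lies at 18.5 to 42.6 CPM in all construct samples, and ENSBTAG00000054894.1 is high in Control 3 alone among the controls.

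LEUTX and mutant ARGFX differed most widely. LEUTX was lower in 72 of 81 members and higher in 1, and 8 were not called, against 12.1% lower and 10.3% higher over all genes tested. The median log2 difference was -2.54, a 5.82-fold lower level. Every mutant ARGFX sample was above every LEUTX sample in 72 members, compared with 30.7% of all genes tested. The same held in 132 of the 143 genes halved by WT ARGFX and LEUTX but not by mutant ARGFX. Their choice put the mutant mean above the LEUTX mean, and LEUTX was called lower than mutant ARGFX in 102 of them. ENSBTAG00000053807.1 had the next fitted estimate after ENSBTAG00000034349.4, although with no LEUTX count its place in the order is not resolved. It held 13.8, 15, 16.7 and 15.8 CPM in the control samples, 5.89, 4.14 and 5.64 CPM in the mutant ARGFX samples and no count with LEUTX, at least 215-fold lower (edgeR adjusted p = 7.95e-11). ENSBTAG00000012406.6, with 1 LEUTX count, had a ratio of 1917.2 to mutant ARGFX with a 95% counting interval from 344.1 to 75725.1. The exception was ENSBTAG00000054069.1, which was 1.76-fold higher with LEUTX than with mutant ARGFX (log2 difference 0.81, SE 0.27, edgeR adjusted p = 0.0271). That call was lost without Mutant ARGFX 1, Mutant ARGFX 3 or LEUTX 1 (adjusted p = 0.0668, 0.111 and 0.0682).

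**Figure D3:**
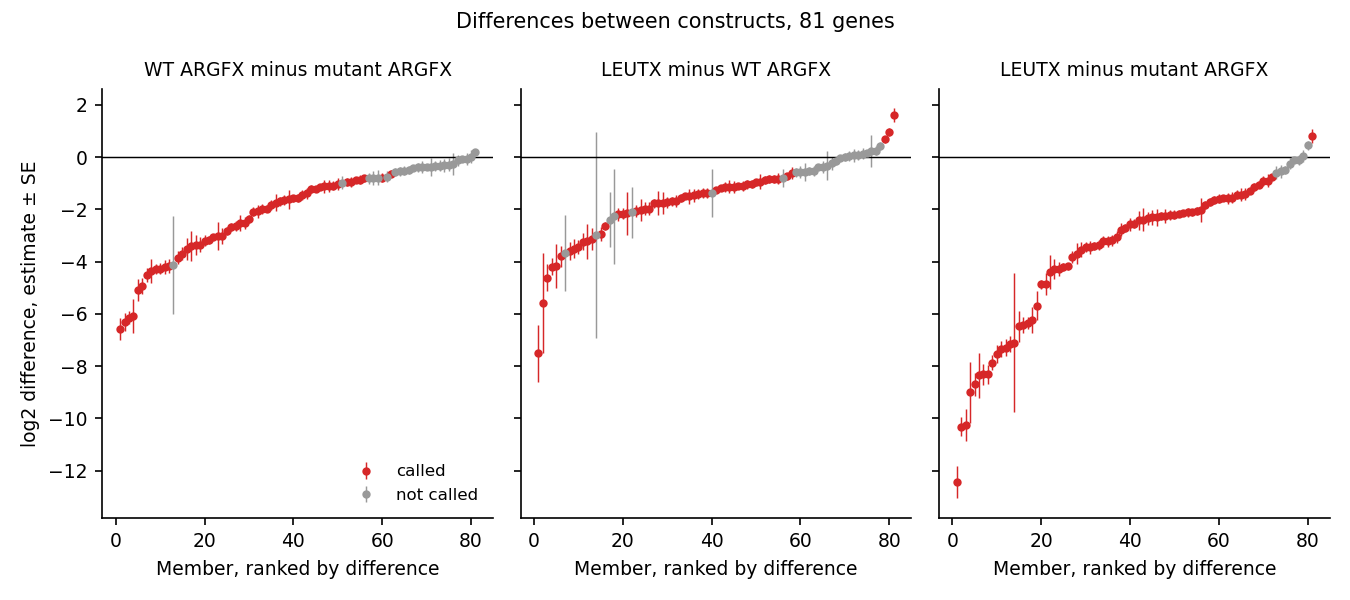
Estimated log2 difference for each of the 81 genes, ranked within each panel, between WT and mutant ARGFX, LEUTX and WT ARGFX, and LEUTX and mutant ARGFX. Bars are standard errors and red points passed the adjusted p-value and fold change thresholds. Red points below 0 number 56, 51 and 72 from left to right, and those above 0 number 0, 3 and 1.

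No difference between constructs was called for 6 members (7.41%), compared with 73.5% of all genes tested, which does not show that their levels were equal. Their mutant means were the highest of the 3 constructs in each case. The most abundant of these, ENSBTAG00000027513.5, named after its values were seen, held 103.5, 68.4, 97.5 and 82.9 CPM in the control samples. It held 28.7, 24.2, 42.6 and 18.5 CPM with WT ARGFX, 24.2, 34.5 and 33.3 CPM with mutant ARGFX and 35.8, 18.8, 36.1 and 30.3 CPM with LEUTX, and the 3 sets of construct samples overlapped throughout. Its log2 difference between LEUTX and WT ARGFX was 0.13 (approximate 95% interval -0.30 to 0.55). ENSBTAG00000005182.6, also named after its values were seen, was more even among replicates. It held 50.2 to 54.7 CPM in the control samples, 23.2 to 24.0 CPM with WT ARGFX, 24.0 to 28.2 CPM with mutant ARGFX and 21.4 to 24.0 CPM with LEUTX, and its interval for the same difference was narrow, from -0.19 to 0.13 on the log2 scale.

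Every control sample lay above every construct sample in 77 of the 81 members, where 8.01% of all genes tested did so. Membership favors this pattern, and nothing is read from the count. The 4 exceptions, named after their values were seen, were ENSBTAG00000054069.1, ENSBTAG00000009206.3, ENSBTAG00000021452.6 and ENSBTAG00000054894.1. ENSBTAG00000009206.3 held 2.69 CPM in Control 1 and 2.86 CPM in Mutant ARGFX 1. ENSBTAG00000021452.6 held 69.2 CPM in Control 2 and 73.1 CPM in Mutant ARGFX 3, with 195.6 CPM in Control 3.

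ENSBTAG00000054894.1 was a member through 1 library. It held 48.9 CPM in Control 3 and at most 0.180 CPM in the other 3 control samples. Among the construct samples it held 13.8 CPM in Mutant ARGFX 3, 1.98 CPM in Mutant ARGFX 2, 1.12 CPM in WT ARGFX 2 and at most 0.107 CPM in a LEUTX sample. Several of its expected counts were small fractions of a read, which arises where reads are shared between similar transcripts. The call that it was lower with LEUTX than with mutant ARGFX (edgeR adjusted p = 0.0456) was lost under 11 alternatives, among them the fit without Mutant ARGFX 3 (adjusted p = 0.326) and DESeq2 (adjusted p = 0.108).

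Summed over the 81 genes, the control samples held 8671.9, 10612.0, 10076.9 and 10734.3 CPM, or 0.867% to 1.073% of all counts. The mutant ARGFX samples held 4290.2, 3410.3 and 3844.1 CPM, the WT ARGFX samples 1503.2, 1339.7, 1349.2 and 1589.2 CPM, and the LEUTX samples 892.1, 824.2, 948.2 and 968.6 CPM. The sums of the 6 left-out interferon-stimulated genes followed the same order of conditions with larger steps between them. They were 5284.8 ± 690.2 CPM in control cells (SD, n = 4), 1644.2 ± 389.8 CPM with mutant ARGFX (SD, n = 3), 112.7 ± 15.6 CPM with WT ARGFX and 26.3 ± 2.06 CPM with LEUTX (SD, n = 4 each). Both sums show the drop that the rule selected, and the steps between constructs are the part it did not set. A single member, ENSBTAG00000012330.6, made up 714.8 of the mean 1445.3 CPM with WT ARGFX and 486.4 of 908.3 CPM with LEUTX. The summed levels with these constructs therefore lean on that gene. It made up less of the sum in the other conditions, 2448.9 of 10023.8 CPM in control cells and 1139.9 of 3848.2 CPM with mutant ARGFX. On a fold scale it thus narrows the steps in the sum.

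**Figure D4:**
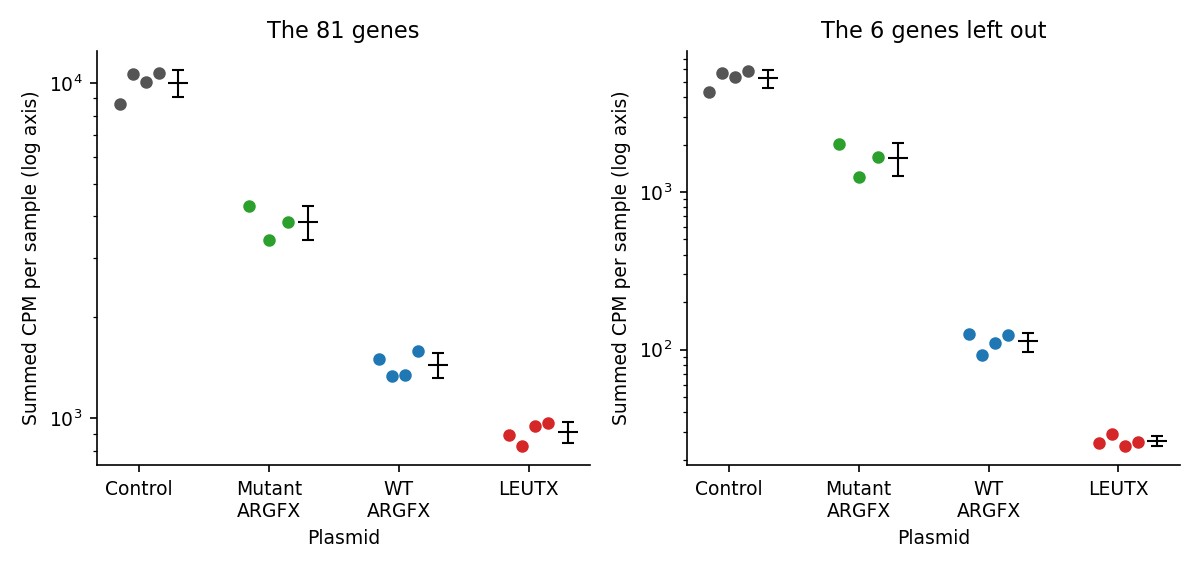
Summed CPM per sample of the 81 genes (left) and of the 6 left-out interferon-stimulated genes (right) on log axes, with one point a sample and the mean ± SD beside each group. The groups do not overlap in either panel, and the means run from 10023.8 CPM in control cells to 908.3 CPM with LEUTX for the 81 genes and from 5284.8 to 26.3 CPM for the 6.

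Samples of one condition also differed from each other in these genes. Control 1 was the lowest control sample for 58 of the 81 members, and Mutant ARGFX 2 was the lowest mutant sample for 58, while Mutant ARGFX 1 was the highest for 49. The transfected ARGFX transcript was at 6241.7, 6514.4 and 3631.0 CPM in Mutant ARGFX 1, 2 and 3. It was thus highest in Mutant ARGFX 2 and lowest in Mutant ARGFX 3, and its part in these differences was not tested. To describe how members moved with the left-out genes inside a condition, log2(CPM + 0.5) was centered on the condition mean in the 7 control and mutant ARGFX samples, the conditions with the highest summed levels of both sets, and each gene was correlated with the mean of the 6. Centering removes the differences between conditions that chose the members. Some members were near or under the added 0.5 CPM in part of these samples, such as ENSBTAG00000014529.5 at 0.629 CPM in Mutant ARGFX 2, where the scale damps their variation. The 6 genes were at -0.36 in Control 1 and -0.52 in Mutant ARGFX 2 on this scale and above 0 in the other 5 samples, and the median of the members was at -0.23 and -0.21 in those samples and above 0 in the other 5.

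The correlation with the 6 left-out genes was over 0.7 for 41 of the 81 members (50.6%), compared with 4.2% of all genes tested. The median r was 0.75 over the members and 0.02 over all genes tested. The points share library and depth and number 7, so the values are a description with no p-value, and 14 members had an r below 0. Without Control 1 and Mutant ARGFX 2, the pair of samples farthest from the median, 32.1% of members and 5.87% of all genes were over 0.7 and the members' median was 0.32, so that much of the strength of this relation rests on those samples. The 41 members with the higher r kept a median of 3.54% of control with WT ARGFX, 32.4% with mutant ARGFX and 1.54% with LEUTX. The other 40 kept 22.6%, 40.0% and 10.6%. The 41 were also more abundant in control cells, with a median of 79.7 CPM against 25 CPM for the other 40, and the part of abundance in this split was not tested. LEUTX was called lower than WT ARGFX in 26 of the 41 and in 25 of the 40.

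ENSBTAG00000045588.2 had the highest correlation of all members, with an r of 1.00 to 2 decimals, and ENSBTAG00000019716.3 had the lowest, with an r of -0.85. Both were named after their values were seen. ENSBTAG00000045588.2 held 98.0, 145.4, 138.3 and 150.8 CPM in the control samples and 38.6, 18.8 and 32.8 CPM with mutant ARGFX, so it was lowest in Control 1 and in Mutant ARGFX 2. ENSBTAG00000019716.3 held 18.4, 16.0, 17.1 and 13.7 CPM in the control samples and 4.00, 7.40 and 6.06 CPM with mutant ARGFX, and was highest in those same libraries. With LEUTX they kept 0.136% and 12.6% of the control level.

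**Figure D5:**
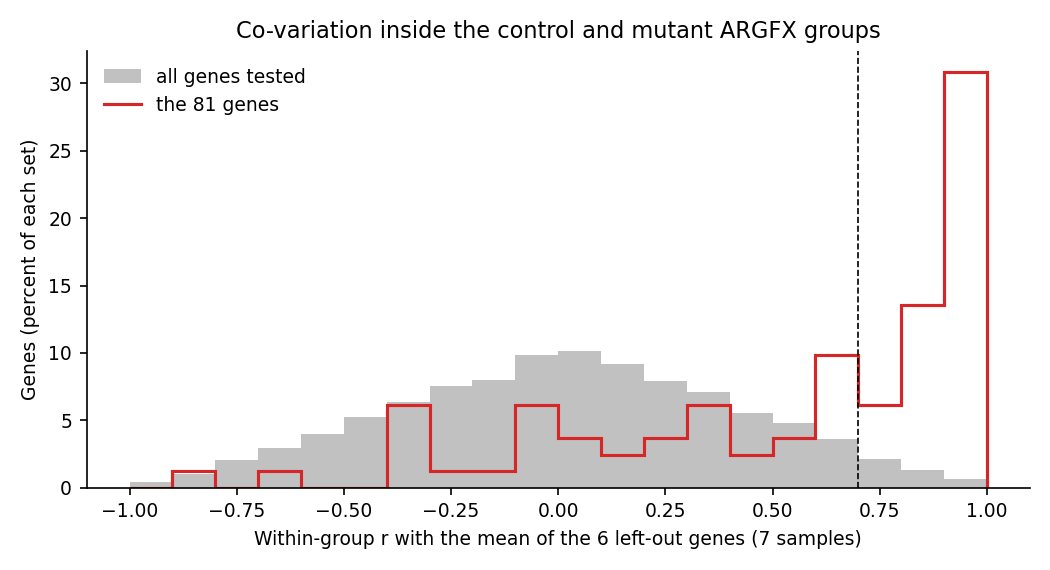
Distribution of the correlation between each gene and the mean of the 6 left-out genes across 7 control and mutant ARGFX samples, after removing condition means, as a percent of all genes tested (gray) and of the 81 genes (red line). The dashed line is at 0.7, and 50.6% of the 81 genes and 4.2% of all genes lie to its right.

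The nearest other group in the table is formed by the 143 genes with a control mean of at least 5 CPM that were at or under 0.5 of control with WT ARGFX and LEUTX but not with mutant ARGFX. Their median was 40.7% of control with WT ARGFX and 25.5% with LEUTX. These genes thus also fell less with the homeodomain constructs than the 81 members did. Those levels were used to choose both groups, and they share the control mean with the mutant level that split them. The selection may thus favor this difference. WT ARGFX was called lower than mutant ARGFX in 63 of the 143 (median log2 difference -0.61), against 1.12% of all genes tested. The choice of the 143 put their WT ARGFX mean below their mutant mean, so nothing is read from that direction. LEUTX was called lower than WT ARGFX in 70 and higher in 1 (median -0.60), against 11.8% and 9.82% of all genes tested. Correlations over 0.7 with the 6 left-out genes inside conditions were found for 20.3% of the 143, against 4.2% of all genes tested. The medians of both groups are descriptions, and the difference between them was not tested.

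Of the 37 genes listed for JAK/STAT and interferon signaling, only TYK2, the kinase that acts at the interferon receptors, could be located by identifier. It held 20.9 ± 5.32 CPM in control cells (SD, n = 4) and was higher with every construct, at 34.7 ± 8.32 CPM with WT ARGFX (log2 difference 0.79, SE 0.16, edgeR adjusted p = 0.00132), 32.9 ± 4.05 CPM with mutant ARGFX (SD, n = 3; log2 difference 0.68, SE 0.17, edgeR adjusted p = 0.018) and 37.4 ± 4.00 CPM with LEUTX (log2 difference 0.95, SE 0.16, edgeR adjusted p = 0.000118). The mutant call was lost without Control 4, Mutant ARGFX 1 or Mutant ARGFX 3 (adjusted p = 0.0567, 0.0821 and 0.0766). Its identifier came from a list of genes raised by WT ARGFX in these samples, so its rise with WT ARGFX is not independent evidence. Its rises with mutant ARGFX and LEUTX were measured against the same control samples, so they are not free of that choice either. ACTA2, an actin of smooth muscle and activated fibroblasts and the only listed muscle or pericyte marker that could be located, was at 698.8 CPM in control cells, 1233.6 CPM with mutant ARGFX, 2075.2 CPM with WT ARGFX and 3372.0 CPM with LEUTX. TOP2A, a topoisomerase of dividing cells and the only listed cell cycle gene that could be located, was at 55.7 CPM in control cells, 74.3 CPM with mutant ARGFX, 91.2 CPM with WT ARGFX and 26.9 CPM with LEUTX. Both identifiers came from the same list of genes raised by WT ARGFX, so their higher level with WT ARGFX was fixed by how they were found. Their levels with the other constructs are set against the same control samples and are not free of that choice. The part of either in the members' levels was not tested.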

How the data were processed

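Libraries from the 15 samples had been sequenced by the authors, who quantified reads with kallisto 0.46.1 against the ARS-UCD1.2 transcriptome with ETCHbox sequences added and summed them per gene with tximport. The deposited values are expected counts (estimated counts, not normalized), of which 93.08% are whole. Groups came from the sample titles. No sample value column was left unused.

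CPM was computed on column sums. Expected counts were rounded and tested with edgeR 4.0.16 in R 4.3.3 (filterByExpr, TMM, quasi-likelihood F test, one fit to all samples, Benjamini-Hochberg adjustment over 14264 genes). A call required an adjusted p-value under 0.05 together with a fold change over 1.5, without the CPM minimum used for other comparisons of these data. The approximate 95% intervals are the estimate ± 1.96 SE. The procedure was tested on simulated data. The p-values measure the spread between replicate transfections of cells from 1 fetus. DESeq2 1.42.0, other scalings, filters and thresholds, a replicate block and each sample left out were tried. The counting limit was 3 counts over a group.

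The members, lists and tests were chosen with earlier results of these data known. By the rule for named genes, these were the members with the highest control mean, the lowest ratios, the largest called difference between constructs in each direction and those next to the thresholds, at most 2 identifiers each where no symbol was known; others are said to be named after their values were seen. Symbols came from the study's list of genes raised by WT ARGFX, which paired 7 of 231 listed genes (fibroblast markers, TYK2, ACTA2 and TOP2A). The RefSeq table used (ARS-UCD2.0) holds none of the identifiers. Counts over the other lists (interferon effectors, guanylate-binding proteins, chemokines, antigen presentation, complement, stress, potency factors and other cell types) were therefore not made, and no sequences are shown.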

Additional observations from a re-analysis of the deposited data

Results flagged for a closer look

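Dixon's 95% criterion for a sample that stands apart from the rest of its group was applied to the groups of 4 samples, in 60 group comparisons of 20 named members, and 5 comparisons of 3 members met it. ENSBTAG00000054894.1 did so in 3 groups, through Control 3 at 48.9 CPM, WT ARGFX 2 at 1.12 CPM and LEUTX 3 at 0.107 CPM. ENSBTAG00000012406.6 in LEUTX 2 at 0.0315 CPM and ENSBTAG00000037527.3 in LEUTX 3 at 0.0282 CPM rest on 1 count each, beside no count in the other LEUTX samples. Over all 81 members, 19 of 239 group comparisons had such a sample, and chance gives about 1 in 20. The 239 leave out the LEUTX group of the 4 members with no LEUTX count, where no sample can stand apart, while the 60 include it. The part of Control 3 in the membership of ENSBTAG00000054894.1 is direct, since the other control samples held at most 0.180 CPM.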

How the results depend on the processing

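The number of genes in the group depended on where the limits were set. It was 131 with a control minimum of 1 CPM, 48 with a ratio limit of 0.4 and 172 with a limit of 0.6, in place of 81, and between 69 and 79 under the other settings that kept all samples. Leaving out each sample in turn gave 72 to 95 genes, and 59 members stayed in all 15 of those lists. The counts called between constructs stayed within 1.5 times the main count under every setting tried, at 49 to 60 for LEUTX and WT ARGFX, 50 to 60 for WT and mutant ARGFX and 62 to 75 for LEUTX and mutant ARGFX. A replicate block fitted to the 13 numbered samples gave 53, 50 and 73 called members, against 52, 52 and 73 without the block, and samples of one number did not deviate together (mean r 0.01 over 16 pairs). The share of members with a correlation over 0.7, whose alternatives were chosen after seeing the data, was 30.9% over all 15 samples, 32.1% without the 2 samples farthest from the median and 49.4% to 60.5% without each sample in turn. The estimate for ENSBTAG00000005182.6 between LEUTX and WT ARGFX was near 0 and changed sign, to 0.002 with DESeq2 size factors, 0.0 with only the compared groups, 0.034 with the block, 0.026 without it on the same samples, 0.003 in DESeq2 and between -0.043 and 0.033 without each sample in turn (0.023 without unnumbered B, 0.033 without LEUTX 1). Over the named members and TYK2, 7 estimates reversed under an alternative, all of this gene, 30 lost a call, 2 gained one and 442 did neither. The test per gene list was not run beyond the 7 genes with a symbol.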
